A study of Mus musculus with 10 samples.

Results

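Kdr, Flt1, Tek, Tie1, Cdh5, Pecam1 and Eng are genes of the cells that line blood vessels, and their RNAs were followed through an immunoprecipitation of 4E-T from embryonic mouse cortex. The members were chosen by symbol. Each of the 7 had 1 probe set annotated with that symbol alone, so all 7 were measured among the 22180 genes tested, and no filter on dim genes was applied. The arrays were Affymetrix Mouse Gene 2.0 ST arrays of cortices from CD1 mice at embryonic days 12 to 13, with no genotype or treatment given in the labels. A total of 4 arrays held total RNA (input 1 to 4), 3 held RNA that came down with an antibody to 4E-T (4ET-IP 1, 2 and 3), and 3 held RNA that came down with control IgG (IgG-IP 2, 3 and 4). The design text calls the replicates biological. How many embryos were pooled for an array is not given in the sources used here, and whole cortex holds vessels, meninges and blood besides neural cells.

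Endothelial cells form the vessels that grow into the cortical wall at this stage. They read vascular endothelial growth factor through the tyrosine kinase receptors encoded by Kdr (VEGFR2, the main signalling receptor) and Flt1 (VEGFR1, which binds the same ligand and limits its supply). Angiopoietins act through Tek (TIE2), whose relative Tie1 has no ligand of its own that is well established and modulates Tek. Cdh5 (VE-cadherin) and Pecam1 (CD31) hold neighbouring cells together, and Eng (endoglin) is a co-receptor for ligands of the TGF-beta and BMP family. The protein 4E-T binds the cap-binding factor eIF4E and is known for holding mRNAs in a repressed state in cytoplasmic granules.

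All levels below are log2 intensities after RMA, and each difference is on that log2 scale. Input 1 and 4ET-IP 1 lay on a lower scale than the other 8 arrays, with medians over all probe sets of 3.54 and 3.52 against 4.33 to 4.54. No IgG-IP array lay on the lower scale. Differences were therefore fitted with group alone (the group-only fit) and again with membership of this pair of arrays as a further term (the set term). Over all genes the differences had a median of -0.19 for 4ET-IP over IgG-IP, -0.02 for 4ET-IP over input and 0.20 for IgG-IP over input in the group-only fit, and 0.03, 0.04 and 0.03 with the set term.

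In total RNA Cdh5, Pecam1 and Eng lay above the median of all genes on every input array. Flt1, Tek and Tie1 lay below it on each, and Kdr lay above it on input 1 alone. The table holds no detection calls, so the 95th percentile of 1428 olfactory, vomeronasal and taste receptor genes on the same array served as a rough floor. Cdh5, Pecam1 and Eng lay above it on all 4 input arrays, Kdr and Flt1 on 2, and Tek and Tie1 on 1. Probes differ in brightness, so this is no detection test, and the levels of the 7 genes are not ordered against each other. Of 32 measured genes of a wider list of vascular identity, 18 lay above the floor on every input array, among them Cldn5, Cd34, Egfl7, Sox17 and Plvap, while Vwf and Clec14a lay above it on none. RMA equalises arrays processed together, though input 1 and 4ET-IP 1 lay on a lower scale in the deposited values, so only relative levels are compared. In such bulk samples fewer endothelial cells and less RNA per cell cannot be told apart.

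Kdr rose in the 4E-T precipitate, and the control precipitate stayed near the tissue level. Kdr stood at 4.50, 4.44, 4.73 and 4.35 on input 1 to 4, with a mean of 4.50 ± 0.16 (SD, n = 4). It stood at 4.21, 4.43 and 4.82 on IgG-IP 2, 3 and 4, with a mean of 4.49 ± 0.31 (SD, n = 3), and at 5.32, 6.04 and 6.16 on 4ET-IP 1, 2 and 3, with a mean of 5.84 ± 0.46 (SD, n = 3). All 3 4ET-IP arrays lay above all 7 others, including 4ET-IP 1, which is on the lower scale, and all 3 exceeded the floor, against 1 of 3 IgG-IP arrays.

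The difference of Kdr in 4ET-IP over IgG-IP was 1.35 ± 0.27 (SE), with a limma adjusted p of 0.0305. Against input it was 1.34 ± 0.25, with an adjusted p of 0.00885. Kdr exceeded the floor on only 1 of 3 IgG-IP and 2 of 4 input arrays, so these are differences in intensity, and no fold in RNA is given. The same 3 4ET-IP arrays enter both differences, and the input arrays also enter IgG-IP over input. With the set term the differences were 1.48 ± 0.22 (adjusted p = 0.00168) and 1.37 ± 0.19 (adjusted p = 4.96e-04). In the 8 other arrays they were 1.61 and 1.60, with adjusted p of 0.00206 and 9.09e-04.

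Single arrays mattered for the call against IgG-IP. It was lost without input 2 (adjusted p = 0.0591), input 3 (0.0521), 4ET-IP 2 (0.135), 4ET-IP 3 (0.136), IgG-IP 2 (0.123), IgG-IP 3 (0.124) or IgG-IP 4 (0.0519), and held without input 1, input 4 or 4ET-IP 1. The call against input was lost without 4ET-IP 2 (0.0581) or 4ET-IP 3 (0.0587) and held without each of the other 8. Over these fits the difference stayed between 1.19 and 1.61 against IgG-IP and between 1.18 and 1.60 against input.

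For Kdr, arrays that share a replicate number were also set against each other. Each 4ET-IP array lay above every array of the other groups, so any pairing gives the same direction. The values below therefore describe size and add no support for the direction. The 4ET-IP array exceeded the input array of its number by 0.82, 1.60 and 1.44 for numbers 1, 2 and 3, and the IgG-IP array of its number by 1.83 and 1.73 for numbers 2 and 3. The first of these values compares the pair of arrays on the lower scale with each other. IgG-IP minus input was -0.23, -0.30 and 0.48 for numbers 2, 3 and 4, with no common direction.

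**Figure D1:**
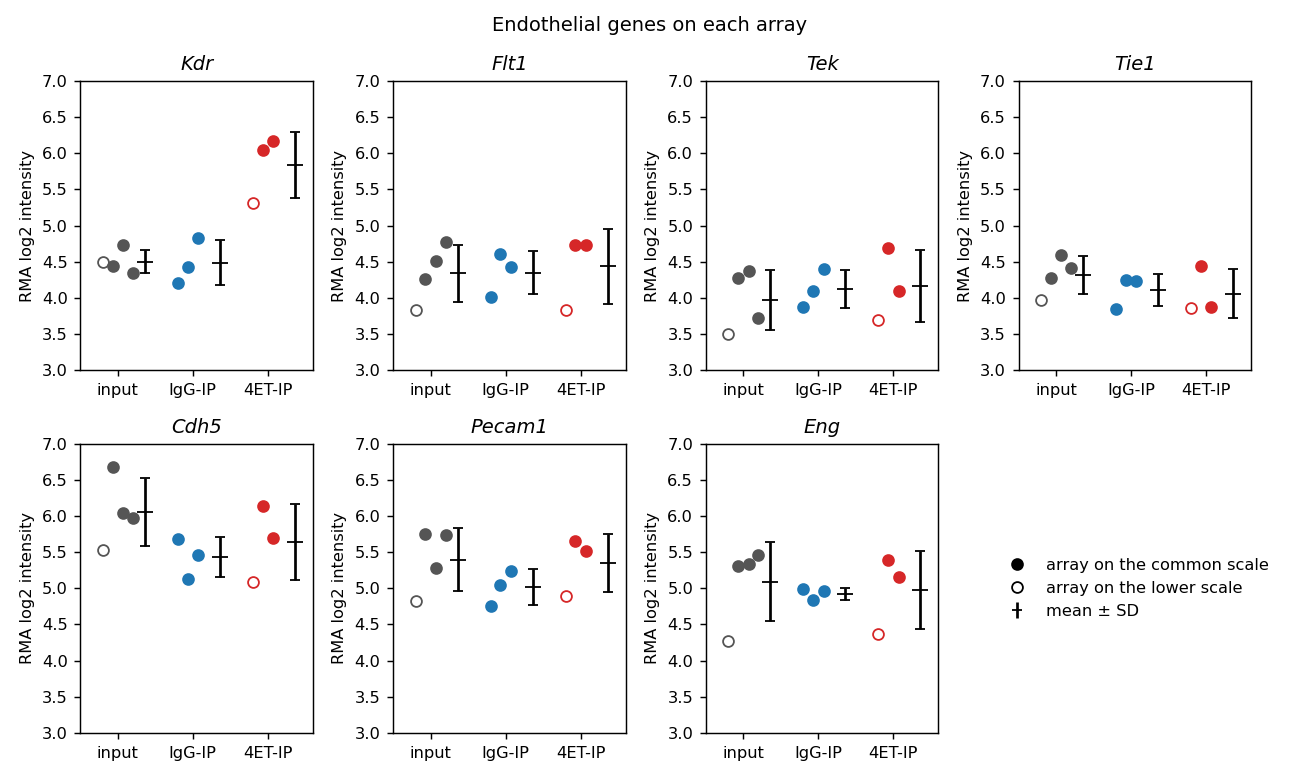
RMA log2 intensity of each of the 7 genes on the 10 arrays, by group, with open circles for the arrays on the lower scale (input 1 and 4ET-IP 1) and black bars for the mean ± SD. Kdr lies between 5.32 and 6.16 on the 4ET-IP arrays, above its 7 other values of 4.21 to 4.82, while the other 6 genes overlap between 4ET-IP and both other groups.

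Flt1, the other receptor for the same growth factor, did not pass the test. Flt1 stood at 3.83, 4.26, 4.51 and 4.77 on input 1 to 4, at 4.02, 4.60 and 4.43 on IgG-IP 2, 3 and 4, and at 3.84, 4.74 and 4.74 on 4ET-IP 1, 2 and 3. Its groups overlapped, and its lowest values in input and in 4ET-IP were those of the arrays on the lower scale. The difference was 0.09 ± 0.31 against IgG-IP, with a 95% interval from -0.59 to 0.77 (adjusted p = 0.902), and 0.10 ± 0.29 against input, with an interval from -0.54 to 0.73 (adjusted p = 1.00). The set term gave 0.35 ± 0.19 (adjusted p = 0.311) and 0.16 ± 0.17 (adjusted p = 0.630).

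Subtracting Flt1 from Kdr on the same array removes a shift common to the whole array. Kdr minus Flt1 was 1.40 ± 0.09 (SD, n = 3) on the 4ET-IP arrays, from 1.31 to 1.48, against 0.14 ± 0.29 (SD, n = 3) in IgG-IP, from -0.17 to 0.40. In input it was 0.16 ± 0.45 (SD, n = 4), from -0.42 to 0.67. The 4ET-IP values did not overlap with either group. Flt1 exceeded the floor on 0 of 3 IgG-IP, 2 of 4 input and 3 of 3 4ET-IP arrays, so the sizes outside 4ET-IP rest on signals near or under it. The change was 1.26 against IgG-IP (exact two-sided permutation p = 0.100) and 1.24 against input (exact p = 0.0571), each the smallest p that its number of arrays allows. Adjusted over the 6 exact permutation tests of the receptor pairs, these were 0.171 and 0.171.

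Tek and Tie1, the receptors of the angiopoietin system, did not pass the test in any comparison. Tek stood at 3.51, 4.28, 4.37 and 3.73 on input 1 to 4, at 3.87, 4.10 and 4.40 on IgG-IP 2, 3 and 4, and at 3.70, 4.69 and 4.10 on 4ET-IP 1, 2 and 3. Tie1 stood at 3.98, 4.27, 4.60 and 4.42 on input 1 to 4, at 3.85, 4.25 and 4.24 on IgG-IP 2, 3 and 4, and at 3.87, 4.45 and 3.87 on 4ET-IP 1, 2 and 3. Both overlapped between all groups, and neither exceeded the floor on any IgG-IP array.

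The difference of Tek was 0.04 ± 0.31 against IgG-IP and 0.19 ± 0.29 against input, with 95% intervals from -0.64 to 0.71 and from -0.44 to 0.82. That of Tie1 was -0.05 ± 0.25 (interval from -0.60 to 0.50) and -0.25 ± 0.24 (from -0.77 to 0.26). Neither passed the test in either fit (adjusted p from 0.470 to 1.00). The sign for Tie1 against IgG-IP turned with the set term, to 0.07 ± 0.19. Tek minus Tie1 within the array averaged 0.10 ± 0.23 (SD, n = 3) in 4ET-IP, 0.01 ± 0.16 (SD, n = 3) in IgG-IP and -0.34 ± 0.30 (SD, n = 4) in input. The changes were 0.09, 0.44 and 0.36 for 4ET-IP over IgG-IP, 4ET-IP over input and IgG-IP over input (exact permutation p = 0.600, 0.114 and 0.114).

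**Figure D2:**
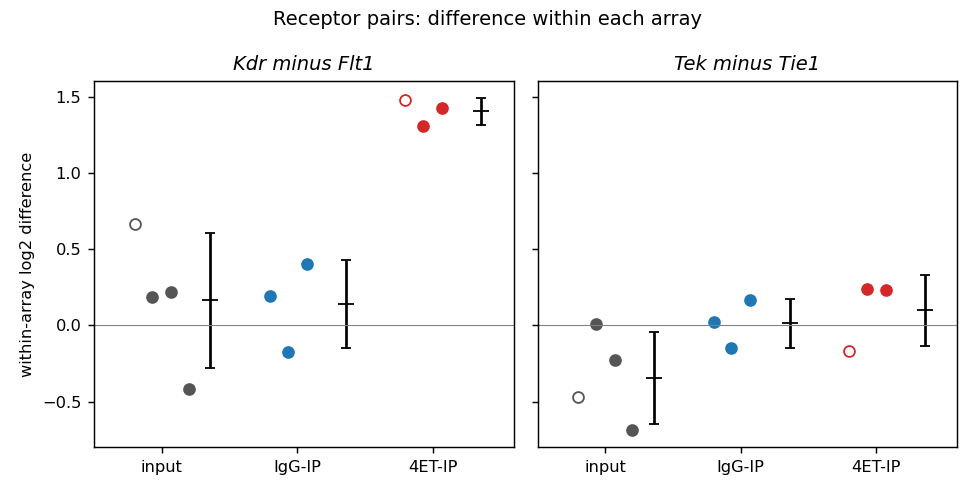
Within-array log2 difference of Kdr minus Flt1 (left) and Tek minus Tie1 (right) on each array, by group, with open circles for the arrays on the lower scale and black bars for the mean ± SD. Kdr minus Flt1 lies at 1.31 to 1.48 in 4ET-IP and at 0.67 or less on the other 7 arrays, while Tek minus Tie1 overlaps between 4ET-IP and both other groups.

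The junction genes Cdh5 and Pecam1 and the co-receptor gene Eng were not called in any comparison of the group-only fit. Cdh5 stood at 5.53, 6.68, 6.04 and 5.97 on input 1 to 4, at 5.68, 5.14 and 5.47 on IgG-IP 2, 3 and 4, and at 5.09, 6.14 and 5.69 on 4ET-IP 1, 2 and 3. Pecam1 stood at 4.83, 5.76, 5.27 and 5.73 on input 1 to 4, at 4.75, 5.05 and 5.25 on IgG-IP 2, 3 and 4, and at 4.89, 5.65 and 5.52 on 4ET-IP 1, 2 and 3. Over the 3 groups in that order the means ± SD of Cdh5 were 6.05 ± 0.47, 5.43 ± 0.28 and 5.64 ± 0.52, and those of Pecam1 were 5.40 ± 0.44, 5.02 ± 0.25 and 5.35 ± 0.41 (n = 4, 3 and 3). Eng stood at 4.27, 5.31, 5.34 and 5.46 on input 1 to 4, at 4.99, 4.83 and 4.96 on IgG-IP 2, 3 and 4, and at 4.36, 5.39 and 5.16 on 4ET-IP 1, 2 and 3, with means of 5.09 ± 0.55, 4.93 ± 0.08 and 4.97 ± 0.54. Over all 10 arrays each of these genes overlapped between every pair of groups. In the 8 arrays on the common scale, all 3 IgG-IP values of each gene lay below inputs 2, 3 and 4 and below 4ET-IP 2 and 3. Tie1 was also below those 3 inputs, so 4 of 7 members were lower without overlap on the 8 arrays, where 16.3% of all genes were.

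In the group-only fit none of the 7 members was called in IgG-IP over input by limma, while 3.99% of all genes were called lower. None of the 7 had an unadjusted p under 0.05, where 2057 of all 22180 genes were higher and 1902 lower. The differences there were -0.63 ± 0.31 for Cdh5 (adjusted p = 0.315), -0.38 ± 0.28 for Pecam1 (0.511) and -0.17 ± 0.32 for Eng (0.793). These 3 of 7 members were called lower with the set term, where 10.5% of all genes were, at -0.82 ± 0.21 for Cdh5 (adjusted p = 0.0185), -0.56 ± 0.17 for Pecam1 (0.0393) and -0.42 ± 0.13 for Eng (0.0457). In the 8 arrays alone, Cdh5 (adjusted p = 0.0378) and Eng (0.0491) were called and Pecam1 (0.0596) was not, beside 9.97% of all genes called lower. The count was 3 with the replicate number as a block, 2 with quantile normalization and 1 with median centring, beside 11.5%, 10% and 8.58% of all genes. Arrays of equal number gave IgG-IP minus input of -0.99, -0.91 and -0.50 for Cdh5, -1.003, -0.23 and -0.49 for Pecam1, and -0.32, -0.51 and -0.50 for Eng. All are negative, which the lack of overlap on the 8 arrays already requires, so the signs add no support.

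In 4ET-IP over input none of these 3 genes passed the test. The differences from input were -0.41 ± 0.31 for Cdh5 (adjusted p = 0.696), -0.05 ± 0.28 for Pecam1 (1.00) and -0.12 ± 0.32 for Eng (1.00), with 95% intervals from -1.08 to 0.25, -0.65 to 0.56 and -0.81 to 0.56. Arrays numbered 1, 2 and 3 gave 4ET-IP minus input of -0.43, -0.54 and -0.35 for Cdh5, negative in each, while Pecam1 (0.06, -0.11 and 0.24) and Eng (0.09, 0.09 and -0.18) had no common direction. Against IgG-IP they were 0.21 ± 0.33, 0.34 ± 0.30 and 0.05 ± 0.34, and with the set term 0.47 ± 0.23, 0.58 ± 0.18 and 0.38 ± 0.14. The last 3 had adjusted p of 0.241, 0.0680 and 0.118, so none passed the test.

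Across the 7 members, Kdr alone was called in 4ET-IP over IgG-IP and in 4ET-IP over input, in both fits. The shares of all genes called higher were 0.708% and 2.56% in the group-only fit, 7.57% and 10.4% with the set term. Without the lower-scale pair they were 6.29% and 8.88%. Pecam1 joined Kdr against IgG-IP with the replicate block and with quantile normalization, where 7.8% and 8.52% of all genes were called higher. Against input Kdr alone was called with the block, beside 10.9%. The groups did not overlap on the higher side for 1 of 7 members in each 4ET-IP comparison, beside 7.02% and 6.45% of all genes. On the 8 arrays Kdr, Flt1, Cdh5, Pecam1 and Eng, 5 of 7, lay higher in 4ET-IP than in IgG-IP without overlap, beside 23% of all genes. The median difference of the members was 0.09, -0.05 and -0.17 for 4ET-IP over IgG-IP, 4ET-IP over input and IgG-IP over input, beside -0.19, -0.02 and 0.20 over all genes. The set term gave 0.38, 0.01 and -0.30, beside 0.03, 0.04 and 0.03.

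**Figure D3:**
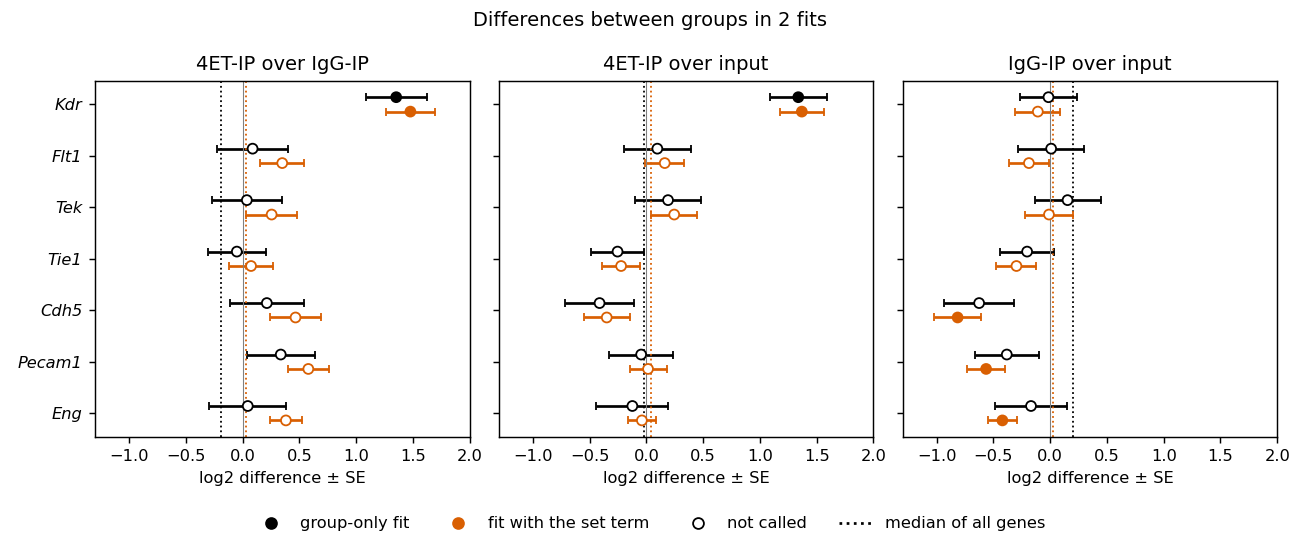
Log2 difference ± SE of each member in the 3 comparisons, from the group-only fit (black) and the fit with the set term (orange), with filled points at an adjusted p under 0.05 and dotted lines at the median of all genes. Kdr is filled at 1.35 and 1.34 in the 4ET-IP comparisons, and Cdh5, Pecam1 and Eng are filled in IgG-IP over input with the set term at -0.82, -0.56 and -0.42.

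The members were also compared with each other over the 10 arrays, after the median of each array was subtracted. Cdh5, Pecam1 and Eng had Pearson r of 0.60 to 0.68 among themselves, while Kdr had r of 0.39 with Pecam1 and 0.02 and 0.01 with Cdh5 and Eng. Kdr with Flt1 gave 0.49 and Tek with Tie1 gave 0.37. These are descriptions over arrays that share groups. The genes whose pattern was most like that of Kdr, among 17279 named genes, were Gpr107, Ccdc112 and Nr2f2, each with r of 0.98. The likeness to Kdr covers the group difference itself: Ccdc112 was higher in 4ET-IP than in IgG-IP by 1.18 (limma adjusted p = 0.0425). Gpr107 (0.82, adjusted p = 0.178) and Nr2f2 (0.65, adjusted p = 0.259) were not called there. For the other members the closest genes were Oprl1, Brinp1 and Foxi1 (Flt1, r from 0.89 to 0.92), Kcnk7, Grap2 and Pax7 (Tek, 0.93 to 0.97), and Pla2g2a, Cradd and Plcd1 (Tie1, 0.90 to 0.94). They were Tinf2, Anxa2 and Zcchc17 for Cdh5 (0.90 to 0.94), Pdx1, Brinp3 and Gadd45b for Pecam1 (0.90 to 0.93), and Clpb, Nr1i3 and Skint5 for Eng (all 0.92). Each r is among the highest of a search of 17279 genes over 10 arrays, and no link between genes was tested. Kcnk7, Grap2 and Skint5 had input means of 3.07, 2.70 and 2.18, under the floor of every input array (3.41 to 4.62).

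Other genes linked to vessels were read from 4 lists with 88 measured genes: vascular identity, VEGF and angiopoietin signalling, endoglin and junction partners, and vessels of the brain barrier. These lists also hold genes that are not particular to endothelial cells, such as Ctnnb1, Smad4, Bmpr2 and Hif1a. A call in them does not place the RNA in vessels. In 4ET-IP over IgG-IP, S1pr1 was the only one called, out of 88, beside 0.708% of all genes called higher and 0.64% lower. At an unadjusted limma p under 0.05, 14 of the 88 were higher and 1 lower, beside 1245 and 1569 of all 22180 genes. S1pr1, a receptor for sphingosine 1-phosphate, averaged 7.56 in 4ET-IP, 5.77 in IgG-IP and 6.53 in input. It was higher than in IgG-IP by 1.79 ± 0.22 (adjusted p = 0.00247) and than in input by 1.03 ± 0.21 (0.0125), both called without any 1 array. The lists were chosen with earlier results of these data known, so the shares called in them are described and not tested. In the fit with the set term 14 of the 88 genes rose and 1 fell (15.9% and 1.14%), beside 7.57% and 2.92% of all genes. They included the endothelial transcription factor genes Ets1 (0.92 ± 0.21), Mecom (0.98 ± 0.21) and Sox18 (0.82 ± 0.21), Emcn, which encodes the sialomucin endomucin (0.78 ± 0.18), and the barrier genes Mfsd2a (0.64 ± 0.16), Slc2a1 (0.60 ± 0.15) and Fzd4 (0.95 ± 0.23). These members were named after their values were seen. Of the 32 vascular identity genes, 6 were called higher in that fit, Sox7 (0.70 ± 0.20) among them. The transcription factor genes Fli1 (-0.10 ± 0.15), Lmo2 (-0.08 ± 0.18), Sox17 (0.14 ± 0.14), Erg (0.61 ± 0.36) and Tal1 (0.32 ± 0.15) were not called. Mecom and Sox7 each exceeded the floor on only 1 of 4 input arrays. In 4ET-IP over input, the same fit called Ets1, Mecom, Slc2a1 and Fzd4 higher as well. Emcn was lower in 4ET-IP than in input there (-0.69 ± 0.16, adjusted p = 0.00878). Sox18 (-0.01 ± 0.18) and Mfsd2a (0.24 ± 0.14) were not called. In IgG-IP over input that fit called 4 of the vascular identity genes lower: Sox18 (-0.83 ± 0.19), Emcn (-1.46 ± 0.16), Cldn5 (-0.70 ± 0.15) and S1pr1 (-0.70 ± 0.15). S1pr1 was not called lower there in the group-only fit (-0.76 ± 0.21, adjusted p = 0.0565).

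In the list of VEGF and angiopoietin signalling, 2 of 20 genes were called in 4ET-IP over input by the group-only fit, and with the set term Vegfa, Vegfc, Nrp2 and Hif1a were called higher and Vegfb lower. Nrp2, a neuropilin co-receptor, was higher in 4ET-IP than in input by 1.17 ± 0.24 (adjusted p = 0.0123), a call lost without 4ET-IP 2 or 4ET-IP 3. Vegfb, a ligand of Flt1, was lower by 0.88 ± 0.22 (0.0356), a call that held only without input 1 among the 10 fits that left out 1 array. The barrier list had Tfrc, the transferrin receptor, higher by 0.98 ± 0.22 (0.0196, lost without 4ET-IP 2, 4ET-IP 3, input 3 or input 4) and Fzd4, a Wnt and norrin receptor, by 0.92 ± 0.25 (0.0478, lost without any of the 10 arrays). In all, 4 of the 88 were higher and 1 lower against input (4.55% and 1.14%), beside 2.56% and 3.58% of all genes. The set term gave 16 higher and 2 lower, Emcn and Vegfb (18.2% and 2.27%), beside 10.4% and 8.86%. As the lists were chosen with earlier results known, these shares are descriptions and not a test. Angpt1, the ligand of Tek, had the highest difference of its list against IgG-IP without passing the test (1.53 ± 0.46, adjusted p = 0.141), and Plxnd1 the lowest (-0.60 ± 0.45). In the list of endoglin and junction partners, Tjp1 (0.64 ± 0.29) and Ctnnd1 (-0.78 ± 0.27) lay at the ends without being called against IgG-IP, and Tgfbr1 (0.72 ± 0.27) and Ctnnd1 (-0.26 ± 0.26) against input.

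In IgG-IP over input, 2 of the 88 were called higher and 2 lower, beside 1.45% and 3.99% of all genes. Emcn was lower by 1.37 ± 0.23 (adjusted p = 0.00444), a call kept without any 1 array, and Vegfb by 0.89 ± 0.22 (0.0365, held only without input 1 or 4ET-IP 1). Bmpr2, a BMP receptor gene, was higher by 0.94 ± 0.20 (0.0199, lost without input 2, input 3 or any IgG-IP array). Hif1a, which encodes an oxygen-regulated transcription factor, was higher by 0.75 ± 0.20 (0.0454, held only without input 1 or 4ET-IP 1). The set term gave 6 higher and 6 lower, beside 6.14% and 10.5% of all genes.

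Genes of the other cell types near vessels were read beside Kdr. Of 14 pericyte and mural genes, 12 meningeal and mesenchymal genes, 12 microglial genes and 7 erythroid genes, limma called none in 4ET-IP over IgG-IP in the group-only fit. At an unadjusted p under 0.05 there were 1 higher and 2 lower, 0 and 1, 0 and 3, and 0 and 0. Of all 22180 genes, 1245 were higher and 1569 lower at that threshold. The pericyte genes ran from Rgs5 (-1.11 ± 0.43) to Kcnj8 (0.68 ± 0.27), the meningeal ones from Col1a2 (-1.54 ± 0.70) to Crabp2 (1.19 ± 0.71), the microglial ones from Cd68 (-1.12 ± 0.45) to Cx3cr1 (-0.07 ± 0.51), and the erythroid ones from Klf1 (-0.28 ± 0.44) to Slc4a1 (0.61 ± 0.40). After the median of each array was subtracted, mean levels over the pericyte list were 0.31 to 0.37 in 4ET-IP and 0.29 to 0.37 in IgG-IP. Those of the microglial list were -0.31 to -0.18 and -0.06 to 0.04. With the set term Kcnj8 of the 14 pericyte genes, Foxc1 of the 12 meningeal genes and Slc4a1 of the 7 erythroid genes were called higher. The share of all genes called higher in that fit was 7.57%. The part of these cell types in the Kdr result was not tested.

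In 4ET-IP over input the group-only fit gave 1 call in these lists, where 3.58% of all genes were lower: Tyrobp of the microglial list, lower by 1.64 ± 0.26 (adjusted p = 0.00427). With the set term Zic1, Foxc1, Cx3cr1 and Slc4a1 were called higher and Tyrobp, Fcer1g, C1qb, Cd68 and Hba-x lower, beside 10.4% and 8.86% of all genes. In IgG-IP over input Tyrobp was also lower in the group-only fit, by 1.31 ± 0.26 (0.0118, lost without IgG-IP 2), as was Hba-x, an embryonic globin gene, by 0.83 ± 0.20 (0.0310, held only without input 1 or 4ET-IP 1). Of 13 cortical precursor and neuron genes, 5 were higher and 2 lower in 4ET-IP than in input in the group-only fit, beside 2.56% and 3.58% of all genes, with Hes5 at 2.29 ± 0.36, Sox2 at 1.18 ± 0.22 (lost without 4ET-IP 2), Neurog2 at 1.04 ± 0.27 (held only without input 1 or 4ET-IP 1) and Stmn2 at -1.34 ± 0.25. Against IgG-IP the 1 gene called in that fit was Dcx, at -1.23 ± 0.26 (adjusted p = 0.0383, held only without input 1 or input 4). The set term called Sox2, Emx2, Hes5, Nes and Neurog2 higher besides Dcx lower, 5 and 1 of 13, beside 7.57% and 2.92% of all genes. The centred mean of the whole cortical list was 4.71 to 5.23 in 4ET-IP, 4.37 to 4.47 in IgG-IP and 4.41 to 4.72 in input, and its part in the Kdr result was not tested.

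**Figure D4:**
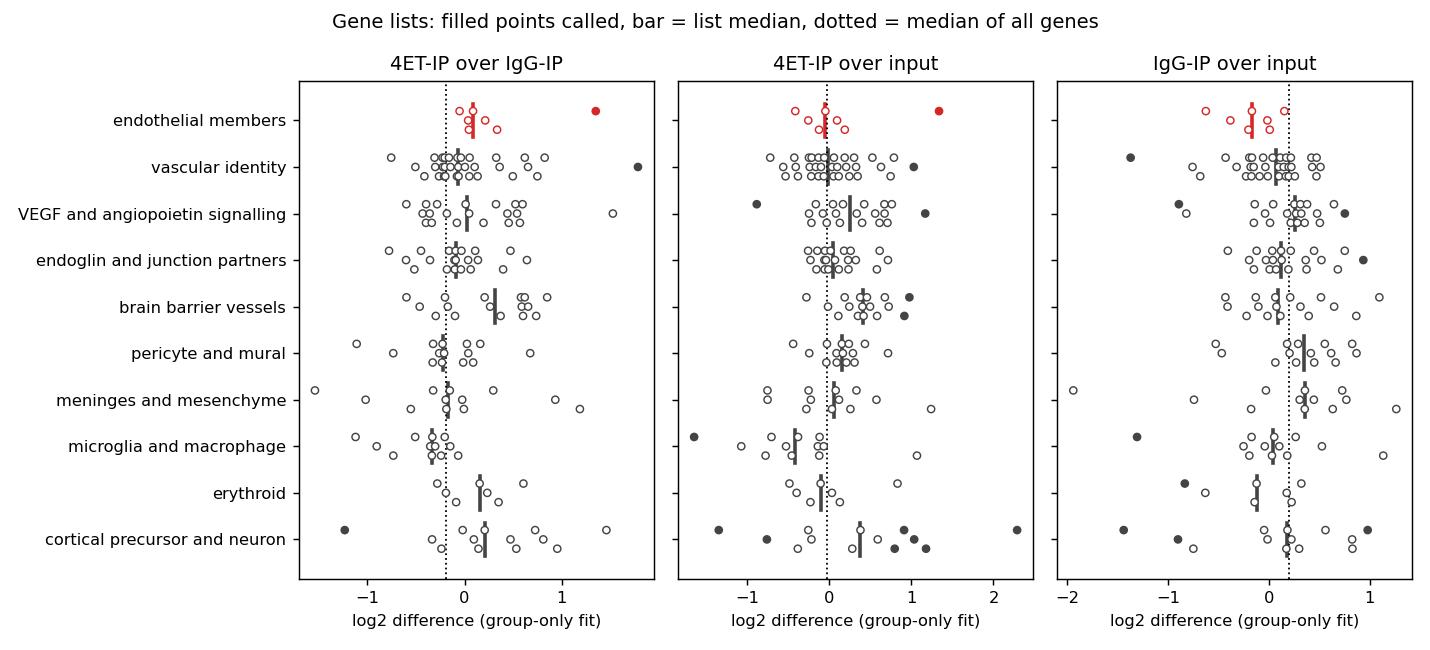
Log2 difference of every measured gene of the 7 members (red) and of 9 further lists (grey) in the 3 comparisons of the group-only fit, with filled points at an adjusted p under 0.05, bars at list medians and dotted lines at the median of all genes. Kdr (1.35 and 1.34) and S1pr1 (1.79 and 1.03) are the filled points on the higher side of the members and of the vascular identity list in the 4ET-IP comparisons.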

How the data were processed

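Precipitates were made with a Magna RIP kit and cDNA was amplified with a NuGEN Pico protocol, per the labels' protocols. The deposited values are log2 intensities that the authors obtained by RMA; the submitters' processing notes name Affymetrix Expression Console as the software. Its version and the genome build are not given in the sources used here. RMA equalises arrays processed together, so the amount of RNA recovered was not compared.

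Of 41345 probe sets, 23521 carried 1 symbol, 1814 several and 16010 no annotation entry. The probe set with the highest mean stood for each of 22180 genes, of which 22139 had a symbol in the RefSeq gene table (GRCm38.p6). Groups came from the sample titles. The test was limma (version 3.58.1, R 4.3.3; lmFit and eBayes), two-sided, with Benjamini-Hochberg adjustment over all genes and a call at an adjusted p under 0.05. Receptor pairs were compared by exact permutation of arrays. The code was tested on simulated data. The number of arrays limits the precision.

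The alternatives were the set term, the 8 other arrays, median centring, quantile normalization, a replicate block, fits of 2 groups, a trended robust variance, only genes above the median mean, all probe sets and leaving out each array. Named were all members, of each list the called genes (up to 4 by size) or else both ends of its range, and for each member the 3 genes with the highest r; further names were chosen after their values were seen. Members and lists were chosen with earlier results of these data known. The numbers of 4ET-IP and input arrays met the criterion for pairs, since deviations from group means of equally numbered arrays correlated at 0.24 to 0.62 over genes; arrays of unequal number reached 0.27, and without the lower-scale pair equal numbers gave 0.044 and 0.0085, so pairing outside that pair is not shown. For IgG-IP and input (-0.02 to 0.32) they did not, and 4ET-IP and IgG-IP share only 2 numbers.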

Additional observations from a re-analysis of the deposited data

Results flagged for a closer look

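Eng on input 1 stood at 4.27, far below inputs 2, 3 and 4, which lay between 5.31 and 5.46. The gap to the nearest of them was 0.872 of the whole range of the 4 arrays, above the Dixon limit of 0.829. Chance flags about 1 in 20 groups, and the input values of 7 members were examined. Input 1 is on the lower scale. After the median of each array was subtracted, Eng stood at 0.13 on input 1 against 0.41 to 0.55 on the others, a gap of 0.668 of the range and below the limit.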

How the results depend on the processing

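Kdr kept its direction in both 4ET-IP comparisons under every alternative run. In 4ET-IP over IgG-IP the members called numbered 1 in the group-only fit, 2 with quantile normalization or the replicate block (Kdr, and Pecam1 at 0.73 and 0.66), 0 in a fit of only the 2 groups (Kdr, adjusted p = 0.0612), and 0 to 1 when 1 array was left out. In 4ET-IP over input they numbered 1, and 0 to 1 when 1 array was left out; the block changed no call there. In IgG-IP over input they numbered 0, also without any 1 array, but 3 with the set term or the replicate block (Cdh5, Pecam1 and Eng), 2 in the 8 other arrays or with quantile normalization, and 1 with median centring or with the block in the 8 arrays (Cdh5). The cause was not tested.

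Small differences changed sign, none of them called on either side. Tie1 in 4ET-IP over IgG-IP was 0.074, 0.046, 0.14, 0.38, 0.10 and 0.074 with the set term, the 8 arrays, median centring, quantile normalization, the replicate block and the block in the 8 arrays. Flt1 in IgG-IP over input was, in that order, -0.19, -0.16, -0.16, -0.30, -0.20 and -0.16, and Tek was -0.011, -0.0018, -0.012, -0.16, -0.0069 and -0.0018. Pecam1 in 4ET-IP over input was 0.014 with the set term, 0.091 with quantile normalization, 0.080 with the block and 0.089 with the block in the 8 arrays, and Eng was 0.017 with quantile normalization. Kdr minus Flt1 in IgG-IP over input was 0.14 in the 8 arrays and 0.0072 with quantile normalization.

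When 1 array was left out, Kdr minus Flt1 in IgG-IP over input ran from -0.22 to 0.14. In 4ET-IP over IgG-IP, Flt1 ran from -0.078 to 0.39, Tek from -0.22 to 0.27, Tie1 from -0.24 to 0.046, Cdh5 from -0.034 to 0.49 and Eng from -0.17 to 0.35. Against input, 4ET-IP differed by -0.074 to 0.40 for Flt1, -0.072 to 0.42 for Tek, -0.24 to 0.18 for Pecam1 and -0.40 to 0.18 for Eng. For IgG-IP over input, Kdr ran from -0.18 to 0.12, Flt1 from -0.16 to 0.17 and Tek from -0.0018 to 0.29. Of 411 values of members under the alternatives, 335 kept direction and side of the threshold. Flt1, Tek and Tie1 dropped out when only genes above the median mean were tested. Without detection calls, a low level could not be told from no signal.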
